A study of Homo sapiens with 2 samples.

Results

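The 10 genes described here code for proteins stored in the granules of neutrophils. They were taken by symbol from the 36601 gene rows of both count matrices, and all 10 symbols were found once in each. They were grouped by the granule in which each protein is classically stored. The azurophil (primary) granule genes were *MPO*, *AZU1*, *ELANE*, *PRTN3*, *CTSG*, *DEFA3* and *DEFA4*, the specific (secondary) granule genes were *LTF* and *CAMP*, and *LYZ* was kept apart because lysozyme is found in several granule classes and in macrophages. Co-detection was read per cell barcode within *PTPRC*-positive cells, that is, cells with at least 1 unique molecular identifier (UMI, a count of 1 captured transcript) of the pan-leukocyte gene *PTPRC* (CD45).

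The cells came from 2 blood-generating heart-forming organoids (BG-HFOs) at day 14, named 32.7 and 33.10. Both were grown from the hES3 NKX2.5-eGFP human embryonic stem cell line by embedding aggregates in Matrigel, modulating WNT in 2 phases and adding cytokines and growth factors that favour blood and endothelium. Each organoid was dissociated alone and gave 1 10x Genomics 3′ library, so there was 1 condition, no untreated group and 1 parental line. The libraries held 16866 and 19948 barcodes with 191152562 and 233818881 UMIs, and 16792 and 19893 cells were kept. Of these, 1900 cells (32.7) and 1051 cells (33.10) were *PTPRC*-positive. The libraries shared 100 barcode sequences, under 1% of either library.

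Neutrophil granules are filled in a fixed order while the precursor matures. Promyelocytes make the azurophil proteins, myelocytes and metamyelocytes make the specific-granule proteins, and gelatinase granules and secretory vesicles follow. The order is set mainly by when each gene is transcribed, so transcripts of an early and a late class mark different stages of maturation. C/EBP factors, PU.1, RUNX1 and GFI1 are known regulators of these genes.

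*AZU1*, *PRTN3* and *ELANE* lie next to each other on the plus strand of chromosome 19 (GENCODE 44 gene spans on GRCh38, chr19:825097-832018, chr19:840999-848175 and chr19:851014-856247). *CTSG*, cathepsin G, lies on the minus strand at chr14:24573518-24576250, and *MPO*, myeloperoxidase, on the minus strand at chr17:58269855-58280935. *LTF*, lactotransferrin, occupies chr3:46435645-46485234 on the minus strand, *CAMP*, the cathelicidin precursor, chr3:48223347-48225491 on the plus strand, and *LYZ* chr12:69348381-69354234 on the plus strand.

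Promoters are shown for 3 azurophil genes whose transcripts were found in the same cells, and for *CAMP* as the specific-granule gene beside them. Each run holds the 250 bases before the RefSeq start (GRCh38.p14), 5′ to 3′ on the strand of the gene, with matches to 3 motifs in capitals. The motifs were TTNNGCAA for C/EBP, GAGGAA for PU.1 and TGTGGT for RUNX, each searched on both strands, and none of the matches overlapped another.
AZU1, chr19:827587-827836, plus strand: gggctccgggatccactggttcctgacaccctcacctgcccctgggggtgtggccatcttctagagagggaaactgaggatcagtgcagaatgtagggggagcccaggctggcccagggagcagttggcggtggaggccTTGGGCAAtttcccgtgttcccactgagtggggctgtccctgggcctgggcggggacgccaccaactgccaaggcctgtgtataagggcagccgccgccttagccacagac
PRTN3, chr19:840749-840998, plus strand: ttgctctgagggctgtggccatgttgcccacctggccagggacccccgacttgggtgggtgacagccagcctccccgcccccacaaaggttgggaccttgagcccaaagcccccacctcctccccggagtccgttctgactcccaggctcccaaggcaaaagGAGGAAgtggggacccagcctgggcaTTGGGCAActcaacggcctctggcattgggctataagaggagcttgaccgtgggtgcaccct
CTSG, chr14:24576251-24576500, minus strand: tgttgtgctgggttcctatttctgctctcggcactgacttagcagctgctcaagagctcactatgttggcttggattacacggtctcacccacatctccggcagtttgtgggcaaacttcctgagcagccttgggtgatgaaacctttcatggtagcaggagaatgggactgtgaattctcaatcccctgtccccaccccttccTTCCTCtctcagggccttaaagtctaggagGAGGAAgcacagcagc
CAMP, chr3:48223245-48223494, plus strand: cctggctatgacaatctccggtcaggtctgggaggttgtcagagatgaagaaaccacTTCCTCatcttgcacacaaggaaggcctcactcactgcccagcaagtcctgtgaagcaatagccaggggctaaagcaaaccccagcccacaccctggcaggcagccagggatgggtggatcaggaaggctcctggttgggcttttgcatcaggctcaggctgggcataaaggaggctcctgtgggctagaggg
*AZU1* and *PRTN3* each held 1 C/EBP-type match with the same 8 letters, starting 111 and 62 bases before the start. *PRTN3* also held 1 PU.1-type match, *CTSG* held 2 and *CAMP* held 1, and none of the 4 windows held the RUNX letters. The C/EBP-type letters were not particular to the azurophil genes. *LTF* has 3 RefSeq starts, not printed here, of which 1 window held the same 8 letters 59 bases before the start, another held a RUNX-type match and all 3 held a PU.1-type match. Of 35116 RefSeq promoter windows of this length, 9.05% held the C/EBP-type letters, 23.6% the PU.1-type letters and 11% the RUNX-type letters. These matches describe letters only. The *AZU1* and *CAMP* windows lie wholly and partly inside the wider GENCODE spans given above, since the RefSeq starts lie further downstream.

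The azurophil genes fell into a frequent trio and a rare quartet, and both specific-granule genes were rare. *MPO*, which makes hypochlorous acid from peroxide, had a UMI in 622 of 1900 *PTPRC*-positive cells of organoid 32.7 (32.7%, exact binomial 95% interval 30.6 to 34.9) and in 162 of 1051 of organoid 33.10 (15.4%, 13.3 to 17.7). *PRTN3*, proteinase 3, was found in 25.2% and 13.9% of these cells, and *AZU1*, the heparin-binding protein azurocidin, in 24.1% and 13.1%. The order of the trio was the same in both organoids, but the intervals of *PRTN3* and *AZU1* overlapped in each.

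The rare azurophil genes were seen in fewer than 1 cell in 20. *ELANE*, neutrophil elastase, had a UMI in 82 cells (4.32%, interval 3.45 to 5.33) and 5 cells (0.476%, 0.155 to 1.11). *DEFA4*, an alpha-defensin, had a UMI in 64 cells (3.37%) and 14 cells (1.33%), *CTSG*, a serine protease, in 34 (1.79%) and 6 (0.571%), and *DEFA3*, another alpha-defensin, in 31 (1.63%) and 3 (0.285%). *DEFA3* is nearly identical to *DEFA1* and *DEFA1B*, so reads may be split or lost between these copies and its counts are uncertain. *ELANE* was the most frequent of the quartet in organoid 32.7, whereas *DEFA4* was in organoid 33.10. The intervals of *ELANE* and *DEFA4* overlapped in both organoids.

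Among the specific-granule genes, *CAMP*, the precursor of the antimicrobial peptide LL-37, had a UMI in 24 cells (1.26%, interval 0.811 to 1.87) and 5 cells (0.476%). *LTF*, the iron-binding protein of the specific granule, had a UMI in 20 cells (1.05%, 0.644 to 1.62) and 6 cells (0.571%). *LYZ*, which cleaves bacterial cell walls, was the most frequent of all 10 genes, at 70.8% and 60.2%. All these intervals cover counting error only, and a share also depends on how deeply a cell was sequenced.

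Free RNA in droplets puts UMIs into cells that do not express a gene, so the same shares were read in the cardiomyocyte-like cluster (CM-like, 1117 and 1605 cells, median 11964 and 10449 UMIs, against 13829 and 16857 in *PTPRC*-positive cells). *MPO* was found there in 3.85% and 0.685% of cells and *LYZ* in 5.91% and 2.18%. After each cell was thinned to 3000 UMIs, which kept 1750 and 984 *PTPRC*-positive cells and 1040 and 1484 CM-like cells, the *MPO* share was 24.5% against 1.06% in organoid 32.7 and 10.9% against 0.270% in organoid 33.10. *CTSG* and *CAMP* had 0 UMIs in the CM-like cells of both organoids, which allows shares of up to 0.269% and 0.187%. For *LTF* in organoid 33.10 the thinned shares were 0.102% and 0.0674%, 1 cell in each population, so *LTF* was not separable from background there. *ELANE* and *CAMP* had a UMI in 0 and *CTSG* in 1 of the 984 thinned *PTPRC*-positive cells of this organoid. All 3 genes had 0 in its thinned CM-like cells, so at this depth they were not separable from background either. In organoid 32.7 *CAMP* fell to 3 of 1750 thinned *PTPRC*-positive cells (0.171%), against 0 of 1040 thinned CM-like cells. At this depth *CAMP* was thus not separable from background in organoid 32.7 either.

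**Figure D1:**
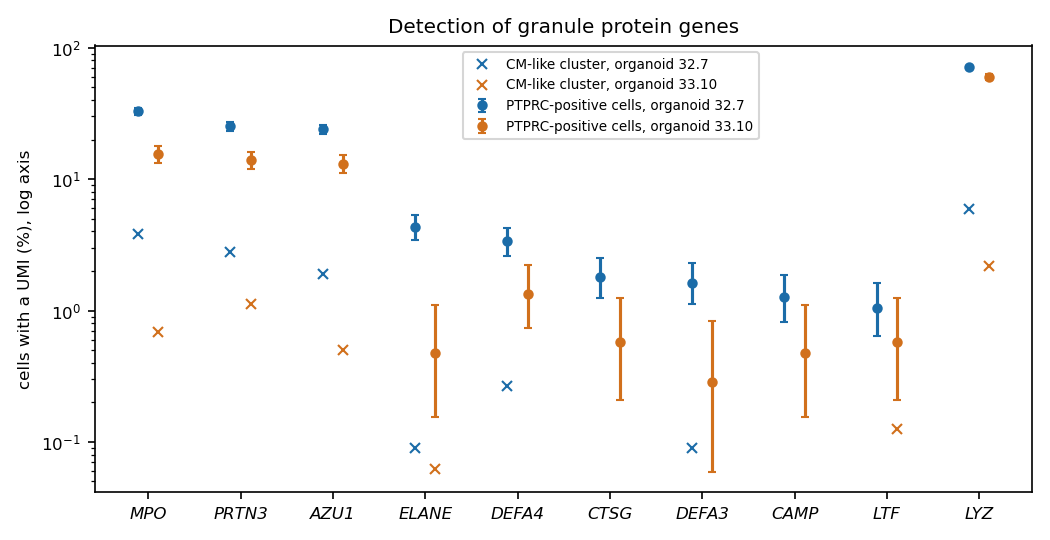
Share of cells with a UMI of each gene (log axis, %) in PTPRC-positive cells of both organoids (circles, exact binomial 95% intervals) and in the CM-like cluster (crosses, drawn where above 0). MPO, PRTN3 and AZU1 lie between 13.1% and 32.7%, ELANE, DEFA4, CTSG, DEFA3, CAMP and LTF between 0.285% and 4.32%, and LYZ at 60.2% and 70.8%.

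By class, any azurophil UMI was present in 749 cells (39.4%, interval 37.2 to 41.7) and 228 cells (21.7%, 19.2 to 24.3), a mean of 30.6% ± 12.5 (SD, n = 2). A specific-granule UMI was present in 40 cells (2.11%, 1.51 to 2.86) and 11 cells (1.05%, 0.524 to 1.86), a mean of 1.58% ± 0.749 (SD, n = 2). With the cells thinned to 3000 UMIs the azurophil shares were 29.4% and 13.8% and the specific-granule shares 0.8% and 0.102%. The shares of the 2 classes did not overlap between organoids. The azurophil intervals of the 2 organoids did not overlap either. The azurophil share counts 7 genes and the specific-granule share 2, so the classes were not compared on equal terms. The rare azurophil quartet, at 0.285% to 4.32% per gene, spanned the range of *LTF* and *CAMP*, at 0.476% to 1.26%.

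The specific-granule cells lay mostly within the azurophil cells in organoid 32.7, but not in organoid 33.10. Of the 40 cells of organoid 32.7 with a specific-granule UMI, 34 also had an azurophil UMI and 6 did not. In organoid 33.10, 3 of 11 did and 8 did not. Of all *PTPRC*-positive cells 39.4% and 21.7% had an azurophil UMI, so the few cells of organoid 33.10 were near that base. The difference between the organoids was not tested. *LYZ* accompanied 678 of 749 and 212 of 228 azurophil-positive cells, but 667 and 421 cells had *LYZ* without any azurophil UMI. At least 3 of the 7 azurophil genes were found together in 360 cells (18.9%) and 83 cells (7.90%), at least 5 in 43 and 6 cells, and all 7 in no cell of either organoid.

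Cells with a rare azurophil transcript were nearly all cells of the frequent trio. In organoid 32.7, *MPO* was found in 63 of 64 *DEFA4*-positive cells, 78 of 82 *ELANE*-positive cells and 32 of 34 *CTSG*-positive cells, and in 29 of 31 *DEFA3*-positive cells. In organoid 33.10 it was found in 14 of 14, 5 of 5 and 6 of 6, and in 2 of 3 *DEFA3*-positive cells. For the first trio of genes, independent detection would put 21.0, 26.8 and 11.1 such cells in organoid 32.7 and 2.16, 0.771 and 0.925 in organoid 33.10. Deeper cells give more UMIs of every gene, so these counts are descriptions.

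The rare genes overlapped one another unevenly. *DEFA3* and *DEFA4*, neighbouring defensin genes, shared 22 cells in organoid 32.7, which was 71.0% of the *DEFA3*-positive and 34.4% of the *DEFA4*-positive cells. *CTSG* and *ELANE* shared 16 cells, 47.1% of the *CTSG*-positive and 19.5% of the *ELANE*-positive cells, and *CTSG* and *DEFA4* shared 14. *CTSG* and *DEFA3* shared only 2 cells. In organoid 33.10 no such pair shared more than 3 cells.

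Among the rare genes, *LTF* was found more often with the defensins than with *ELANE* and *CTSG* in organoid 32.7. In organoid 32.7, 10 of 20 *LTF*-positive cells had a *DEFA3* UMI and 10 had a *DEFA4* UMI, against 1 with *ELANE* and 0 with *CTSG*. *CAMP*-positive cells shared 4 cells with *LTF*, 4 with *DEFA4*, 3 with *ELANE* and 0 with *CTSG*. With independent detection 0.358 *LTF*-*CTSG* and 0.863 *LTF*-*ELANE* cells would be found, so the low counts with the proteases could not be told from 0 at this depth. In organoid 33.10 *LTF* shared 0 cells with *DEFA3*, *DEFA4*, *ELANE* and *CTSG*.

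**Figure D2:**
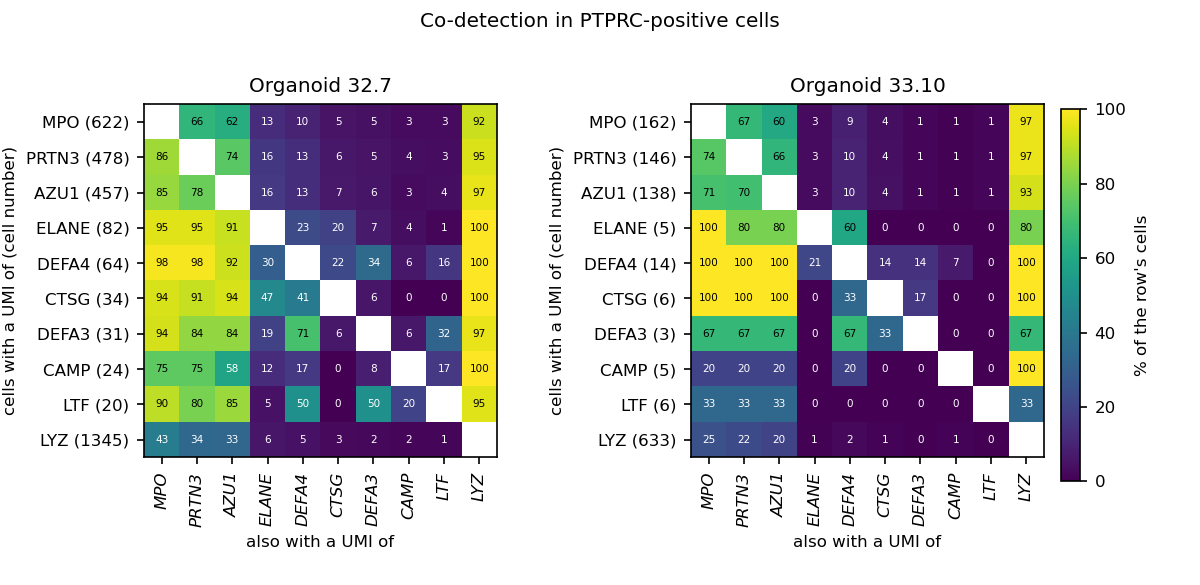
For each gene in a row, the percentage of its positive PTPRC-positive cells that also had a UMI of the column gene, in both organoids, with the number of positive cells in parentheses. In organoid 32.7 the ELANE, DEFA4 and CTSG rows reach over 90% in the MPO, PRTN3 and AZU1 columns, and the LTF row has 10 of 20 cells in each of the DEFA4 and DEFA3 columns and 0 in the CTSG column.

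The level of *MPO* per cell was used as a scale along which the other genes were read, in CPM (a count scaled to a fixed total of UMIs and not divided by transcript length), in all *PTPRC*-positive cells with at least 2 *MPO* UMIs (474 and 128 cells). Under 300 *MPO* CPM, *PRTN3* was found in 46.6% of 73 cells and 61.5% of 39 cells. At 3000 *MPO* CPM or more it was found in 96.8% of 157 cells and 93.3% of 30 cells. The summed *PRTN3* level, which does not depend on depth in the same way, was 105 and 143 CPM in the lowest band and 4157 and 3956 in the highest. Median depth was not even across the bands, at 29138, 12092, 16039 and 22580 UMIs from the lowest to the highest in organoid 32.7 and 27041, 15993, 25382 and 19965 in organoid 33.10.

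*CTSG* was found only at 1000 *MPO* CPM or more, in 5 and 27 cells of the upper bands of organoid 32.7. In organoid 33.10 it rested on 2 and 4 cells, so its absence below carries little weight there. The *CTSG* count was 0 in both bands under 1000 *MPO* CPM, in both organoids, and its level was 2.16 and 4.66 CPM in the next band and 17.3 and 7.46 in the highest. *DEFA4* was 3.22 and 0 CPM in the lowest band and 381 and 145 in the highest. *ELANE* was 0.805 and 72.6 CPM in these bands of organoid 32.7, and 0 and 1.49 in organoid 33.10, where its highest level, 10.2, was in the band from 1000 to 3000. *DEFA3* had 522 CPM in the highest band of organoid 33.10, from 2 cells.

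*LTF* had a different profile in organoid 32.7. It had 0 UMIs in the 157 and 30 cells of the highest *MPO* band. In organoid 33.10 only 2 of the 128 cells had an *LTF* UMI, so the 0 there carries little weight. In organoid 32.7 its level was 37.7 CPM in the band from 300 to 1000 and 11.2 in the band from 1000 to 3000. The shares of positive cells were alike there, at 5.19% (7 of 135 cells) and 5.50% (6 of 109 cells). A single cell held 36.7% of the *LTF* UMIs of *PTPRC*-positive cells of this organoid, so these levels rest on few cells. *CAMP* was not absent from the highest band, with 1, 2, 3 and 8 positive cells from the lowest to the highest band of organoid 32.7. Spearman's rho with *MPO* per cell was 0.62 and 0.63 for *PRTN3*, 0.55 and 0.46 for *AZU1*, 0.26 and 0.32 for *DEFA4*, and -0.09 and -0.02 for *LTF* over the 474 and 128 cells, which shared a library within each value.

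**Figure D3:**
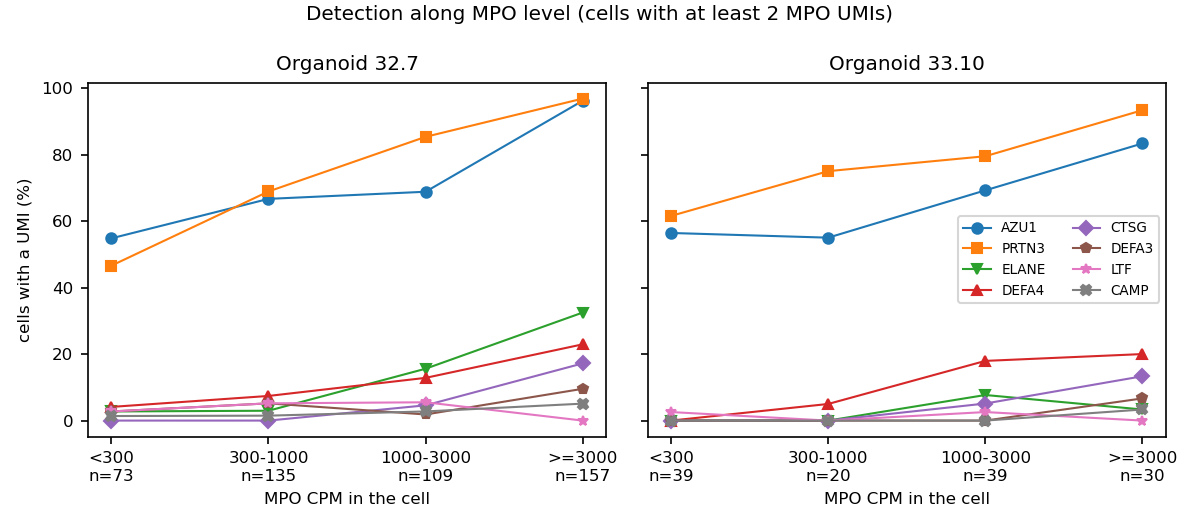
Share of cells with a UMI (%) in 4 bands of MPO CPM, in PTPRC-positive cells with at least 2 MPO UMIs, for both organoids, with the cell number of each band below it. PRTN3 and AZU1 reach 96.8% and 96.2% in the highest band of organoid 32.7, and LTF is at 0 in the highest band of both organoids.

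The 26 cells of organoid 32.7 that had at least 2 *MPO* UMIs and a UMI of *LTF* or *CAMP* differed from the other such cells in more than these genes. Their summed *MPO* level was 2882 CPM, against 2737 in the cells without. *PRTN3* was 597 against 1766, *ELANE* 10.6 against 29.5 and *CTSG* 0 against 6.68. The other azurophil members were close in summed level, with *AZU1* at 315 against 314, *DEFA4* at 148 against 149 and *DEFA3* at 86.3 against 99.9. *BPI*, an azurophil protein that kills Gram-negative bacteria, was at 599 against 189. Shares of positive cells differed more. *DEFA4* had a UMI in 38.5% of the 26 cells against 11.8% of the others, and *DEFA3* in 30.8% against 4.02%. *AZU1* was found in 92.3% against 74.1% and *PRTN3* in 96.2% against 77.5%. *ELANE* was found in 11.5% against 15.8% and *CTSG* in 0% against 7.14%. A single cell held 41.1% of the *DEFA3* and 26.5% of the *DEFA4* UMIs of all *PTPRC*-positive cells of this organoid. In summed level *S100A9*, a calcium-binding protein abundant in maturing neutrophils and monocytes, was 32154 against 6611 CPM, and *S100A12* was 2036 against 228. *PGLYRP1*, a specific-granule peptidoglycan-binding protein, was 96.9 against 1.79, and *PRG2*, the eosinophil major basic protein, was 26.4 against 1726. Only 3 cells of organoid 33.10 met the same rule, with *S100A9* at 18992 against 6551 and *PRTN3* at 2476 against 1219, so the lower *PRTN3* was not seen there.

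To test the members between kinds of *PTPRC*-positive cell, UMIs were summed per organoid in 3 gates. MPO-gated cells had at least 2 *MPO* UMIs (404 and 108 cells), C1Q-gated cells had at least 2 UMIs of the macrophage complement genes *C1QA*, *C1QB* and *C1QC* and fewer than 2 of *MPO* (773 and 337 cells), and the others had neither (653 and 586 cells). The 70 and 20 cells that passed both cuts were left out. *MPO* and the C1Q genes chose the gates and were not tested. Organoids were the replicates, 2 per gate, and the quasi-likelihood F test of edgeR was run over 17345 genes, with p-values adjusted by the Benjamini-Hochberg method, so p-values rest on the spread between 2 organoids of 1 line. In such sums, fewer cells with a transcript and less of it per cell cannot be told apart.

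Other cell types were represented in these gates. The summed eosinophil, basophil and mast cell list was 2945 and 1959 CPM in MPO-gated cells, against 6205 and 4224 in other cells and 257 and 1070 in C1Q-gated cells, with 2 of 12 genes (*TPSAB1* and *TPSB2*) at 0 in both MPO-gated sums. The erythroid list was 1071 and 5077, 6207 and 10384, and 2801 and 4671 in the same order, with none of 10 genes at 0 in the MPO-gated sums. The cardiomyocyte list was 1251 and 1987, 1867 and 1480, and 1214 and 1249, with none of 8 at 0. The part of these transcripts in the results was not tested.

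*PRTN3* and *AZU1* were higher in MPO-gated cells than in other *PTPRC*-positive cells. In organoid 32.7, *MPO* was found in 409 of 478 *PRTN3*-positive and 387 of 457 *AZU1*-positive cells. In organoid 33.10 it was found in 108 of 146 and 98 of 138. A gate on *MPO* thus largely built in this direction, so the p-values of both genes are not support beyond the co-detection. Of the 10 members, *CAMP* failed the filter on low counts, with 16 and 1 UMIs in MPO-gated cells and 4 and 2 in other cells. *DEFA4*, *CTSG*, *DEFA3*, *ELANE* and *LTF* passed it with the MPO-gated sums but not without them, so the filter itself favoured a difference, and they are given as values with no test. *PRTN3*, *AZU1* and *LYZ* passed it either way. Over all genes 231 were higher (percent called 1.33) and 137 lower (0.79), a balance that turned to 201 higher and 335 lower when 2 *PTPRC* UMIs were required.

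*PRTN3* was at 1951 and 1367 CPM in MPO-gated cells of organoids 32.7 and 33.10 and at 18.3 and 4.31 in other cells, with no overlap. Its log2 fold change was 7.28 ± 0.70 (SE; adjusted p = 0.0267, edgeR), with 6.90 in organoid 32.7 alone and 8.30 in organoid 33.10 alone. *AZU1* was at 354 and 211 against 12.5 and 3.53, a log2 fold change of 5.23 ± 0.63 (adjusted p = 0.0280, edgeR), with 4.98 and 5.89 in the single organoids. *LYZ* was at 3863 and 2660 against 754 and 131, with no overlap, and did not pass (2.96 ± 0.74, adjusted p = 0.0885, edgeR). With the organoid as a block it passed (adjusted p = 0.0118), when 710 genes were higher (percent called 4.09) and 608 lower (3.51).

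The rare azurophil members had few or no UMIs in the other *PTPRC*-positive cells. Barcodes without a *PTPRC* UMI, outside these gates, held 300 *DEFA4*, 108 *ELANE*, 95 *DEFA3* and 17 *CTSG* UMIs in organoid 32.7. In organoid 33.10 they held 13, 8, 5 and 10. *DEFA4* was at 179 and 58.8 CPM in MPO-gated cells and at 0.0995 and 0 in other cells, a single UMI against 1808. These UMI numbers pool both organoids and measure no spread between cells or organoids. The filter on low counts favoured a difference, so no ratio or interval is read from them. In organoid 32.7 a single cell held 26.5% of the *DEFA4* UMIs of *PTPRC*-positive cells. *CTSG* was at 7.65 and 3.44, from 80 UMIs, and had 0 UMIs in other cells. *DEFA3* was at 121 and 120 against 2.59 and 0.0861, and its MPO-gated level in organoid 33.10 came from 350 UMIs in 2 cells.

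*ELANE* was at 33.5 and 4.13 CPM in MPO-gated cells against 0.498 and 0.0861 in other cells, with no overlap between the gates but a wide gap between the organoids. In organoid 33.10 the MPO-gated level of *ELANE* came from 12 UMIs in 4 of 108 cells, 8 of them in 1 cell. *LTF* was at 14.6 and 0.688 against 1.59 and 0.258, where the groups overlapped. Both *ELANE* and *LTF* had their higher MPO-gated level in organoid 32.7.

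Against C1Q-gated cells, *PRTN3* and *AZU1* were again higher, when 349 genes were higher (percent called 2.01) and 689 lower (3.97) over all genes. The gate on *MPO* largely built in this direction here too. *PRTN3* was at 9.65 and 6.24 CPM in C1Q-gated cells, a log2 fold change of 7.65 ± 0.72 (adjusted p = 0.00314, edgeR), with 7.70 in organoid 32.7 alone and 7.69 in organoid 33.10 alone. *AZU1* was at 3.57 and 7.33 there, a log2 fold change of 5.75 ± 0.66 (adjusted p = 0.00550, edgeR), with 6.67 in organoid 32.7 alone and 4.76 in organoid 33.10 alone. *LYZ* was at 819 and 564, below both MPO-gated sums, and did not pass (2.21 ± 0.72, adjusted p = 0.142, edgeR). With the organoid as a block it passed (adjusted p = 0.0277), when 600 genes were higher (percent called 3.46) and 1075 lower (6.2).

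The members given without a test were sparse in C1Q-gated cells too. *DEFA4* and *DEFA3* had 0 UMIs there, against 1808 and 1460 in MPO-gated cells. *CTSG* had 2 UMIs against 80, and *ELANE* had 5 UMIs against 319. *LTF* had 134 UMIs in MPO-gated and 0 in C1Q-gated cells of organoid 32.7, and 2 and 1 in organoid 33.10, so its difference rested on organoid 32.7. The UMI numbers of *DEFA4*, *DEFA3*, *CTSG* and *ELANE* here also pool both organoids and measure no spread between cells or organoids. The 2 comparisons share the MPO-gated sums.

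**Figure D4:**
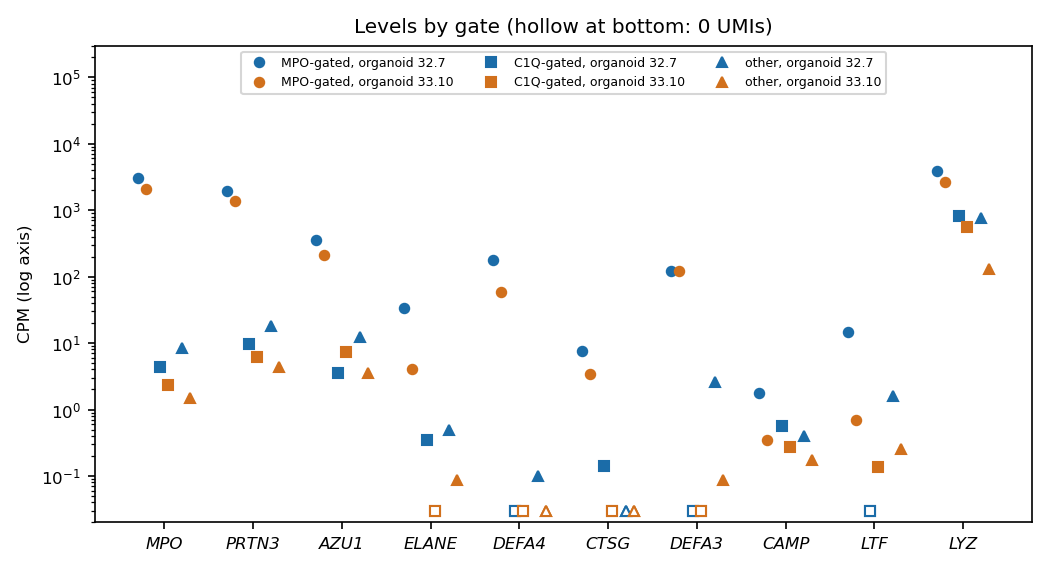
Level of each gene (CPM, log axis) in MPO-gated (circles), C1Q-gated (squares) and other PTPRC-positive cells (triangles) of both organoids, 1 point per organoid, with hollow marks for 0 UMIs. For PRTN3, AZU1, ELANE, DEFA4, CTSG, DEFA3 and LYZ both MPO-gated points lie above every other point, and for LTF and CAMP they do not. MPO set the gates.

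When the gate was set on *AZU1* instead of *MPO*, *MPO* itself could be tested. Its log2 fold change was 4.41 against other cells (adjusted p = 0.0334, edgeR) and 6.64 against C1Q-gated cells (adjusted p = 0.00526, edgeR). These values read the co-detection of *MPO* and *AZU1* in the same cells from the other side. The gate largely built in their direction, so they are not independent support. *PRTN3* and *AZU1* passed in both comparisons in every alternative in which they were tested.

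Part of a list for granule packing and processing, which also held genes of granulocyte precursors and protease inhibition, was higher in the same cells. The lists here and below were chosen with earlier results of these data known, so their calls are not independent support. Over all genes, 1.33% were higher and 0.79% lower against other cells, and 2.01% and 3.97% against C1Q-gated cells. With the organoid as a block these shares were 4.09% and 3.51%, and 3.46% and 6.2%. Of the 10 genes of the packing and processing list, 5 were higher and 0 lower against other cells. Their median log2 fold change was 1.82 where the median of all genes was -0.02. *SRGN*, the proteoglycan that retains basic proteins in granules, rose by 2.53 ± 0.23 on the log2 scale (adjusted p = 0.0267, edgeR) and *MS4A3*, a membrane protein of granulocyte precursors, by 3.53 ± 0.27. *CST7* and the protease inhibitor *SERPINB1* rose by 2.98 and 1.11. With the organoid as a block all 10 were higher. They include *SERPINB10*, which passed the filter on low counts only with the MPO-gated sums. Its calls here and below are not read as results, although it remains in the counts and medians of the list. Against C1Q-gated cells 6 were higher, among them *SERPINB10*, which passed the filter only with the MPO-gated sums, and 1 lower, the lower one being *CTSC*, the peptidase that activates the granule serine proteases, which fell by 1.30 on the log2 scale (adjusted p = 0.00592, edgeR). The block gave 7 higher and 1 lower there.

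Of 10 regulators of granule genes, 2 were higher against other cells, the repressor *GFI1* (log2 fold change 3.5 ± 0.61) and *SPI1*, which codes for PU.1 (1.15 ± 0.20). The median log2 fold change of the list was 1.25, and with the organoid as a block 9 were higher. Of all genes 1.33% were higher without the block and 4.09% with it. Against C1Q-gated cells *GFI1* (5.56), *MYB* (3.46) and *CEBPE* (4.47), the C/EBP factor needed for specific granules, were higher and *IRF8*, which favours monocytes, was lower (-2.40), with adjusted p from 0.00181 to 0.0249 (edgeR), and the block gave 3 higher and 3 lower. *CEBPE* against other cells was at 1.77 ± 0.47 and did not pass (adjusted p = 0.102, edgeR).

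The later granule classes gave no calls. In neither comparison did any of the 7 tested genes of the other specific-granule list, the 6 of the gelatinase list or the 9 of the late neutrophil list pass in edgeR, although 5, 2 and 6 had an unadjusted p under 0.05 against other cells and 3, 2 and 5 against C1Q-gated cells, when 3276 and 3471 of all 17345 genes did. With the organoid as a block, 3, 1 and 4 genes of these lists were higher in each comparison, and 1, 0 and 0 were lower against other cells and 0, 1 and 1 against C1Q-gated cells. Of these genes *ALPL*, *TCN1*, *OLFM4* and *PGLYRP1* passed the filter on low counts only with the MPO-gated sums. They remain in the counts and medians of the specific-granule and late neutrophil lists, which the filter thus favoured. These counts and medians are descriptions and are not read as results. In the order above, median log2 fold changes were 1.85, 1.13 and 2.11 against other cells. They were 1.21, 0.61 and 1.35 against C1Q-gated cells. The late neutrophil list summed to 16494 and 11333 CPM in MPO-gated cells, 3380 and 523 in other and 4539 and 4042 in C1Q-gated cells. The other specific-granule list was at 468 and 358, 185 and 49.3, and 602 and 555 in the same order. *LCN2*, lipocalin 2, went the other way, with 9 UMIs in MPO-gated cells and 155 in other cells (adjusted p = 0.066, edgeR).

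The other azurophil genes did not move as 1 group. Of 6 tested, 1 was higher against other cells and 2 against C1Q-gated cells, with median log2 fold changes of 0.68 and -0.21. *BPI* was higher in both (3.53 ± 0.61, adjusted p = 0.0432, and 6.96 ± 0.79, adjusted p = 0.00540, edgeR) and *PRSS57*, a serine protease, against C1Q-gated cells (5.45 ± 0.43). *CD63*, a membrane protein of azurophil granules and lysosomes, was at -0.56 and -0.54 and passed only with the organoid as a block, which called 3 genes higher and 1 lower against other cells and 2 and 1 against C1Q-gated cells. The summed level of the list was 1046 and 889 CPM in MPO-gated cells and 1046 and 1022 in other cells.

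Other lineages were read the same way. All 7 tested monocyte and macrophage genes were lower than in C1Q-gated cells (3.97% of all genes were), with *CD163* at -7.22 and *CD14* at -6.29 on the log2 scale. The C1Q gate was set by macrophage genes, so this direction was largely built in by the gating. None of the 7 passed against other cells (3 at an unadjusted p under 0.05). Of 8 megakaryocyte genes, *GP9* (-2.58) and *GP1BA* (-2.28) were lower than in other cells, and with the organoid as a block all 8 were. The 9 tested eosinophil, basophil and mast cell genes had a median log2 fold change of -0.98 against other cells and 1.82 against C1Q-gated cells. Of these, *RNASE3* was higher against other cells (4.21 ± 0.67, adjusted p = 0.0378, edgeR) and *EPX* against C1Q-gated cells (3.44 ± 0.64). The block called 2 higher and 2 lower against other cells, the lower ones being *HDC*, histidine decarboxylase, and *IL5RA*, and 3 higher against C1Q-gated cells. *NKG7* of the lymphoid list, *GINS2* of the S-phase list and *PECAM1* of the endothelial list were the only calls of their lists without the block, the first pair against other cells and the last against C1Q-gated cells, all higher. No gene of the erythroid, cardiomyocyte, mesenchymal or mitosis lists passed in edgeR (5, 0, 2 and 4 at an unadjusted p under 0.05 against other cells, and 1, 0, 0 and 2 against C1Q-gated cells). With the organoid as a block, 6 erythroid genes were lower and *MKI67* of the mitosis list was higher against other cells, and *AHSP* of the erythroid list was lower against C1Q-gated cells. The block also gave 3 S-phase genes and 1 monocyte gene higher and 2 endothelial genes lower against other cells, and 1 lymphoid gene lower against C1Q-gated cells.

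By the rule for named genes, the 5 called genes with the highest fitted fold change against other cells were *DEFA4*, *CTSG*, *PRTN3*, *DEFA3* and *ELOVL3*. *ELOVL3*, an enzyme of fatty acid elongation, had 44 UMIs against 1. *DEFA4*, *CTSG* and *DEFA3* passed the filter on low counts only with the MPO-gated sums, so their calls are not read as results. *ELOVL3* was not checked for this and is given by its UMIs only. Where a side had 0 or 1 UMI the fitted fold depends on the prior count, so the order among the 5 genes is not a measurement. The 5 lowest were *AC018437.3* (0 UMIs against 57), *AL157895.1* (1 against 230), *AC010880.1* (2 against 143), the potassium channel gene *KCNK17* (-4.36) and the retinal dehydrogenase gene *ALDH1A1* (-4.27). Against C1Q-gated cells the rule gave *DEFA4*, *DEFA3*, *PRTN3*, *SERPINB10* (477 UMIs against 0) and *PCAT18* (32 against 0). Of these, *DEFA4*, *DEFA3* and *SERPINB10* passed the filter only with the MPO-gated sums, and their calls are not read as results either. *PCAT18* was not checked for this. *MMP12*, *CXCL10*, *IGSF21*, *AL135818.1* and *BIRC7* had 0 UMIs in MPO-gated cells and 502, 432, 381, 133 and 100 in C1Q-gated cells. Whether the lowest genes of either comparison passed the filter without the gate in which they were higher was not checked, so they are given as values.

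Clustering of all cells without the member genes placed most *MPO*, *PRTN3* and *LYZ* transcripts in 2 of 25 clusters. Cluster 18 (421 and 169 cells) was led by *CLC*, *MPO*, *PRG2* and *PRTN3*. It passed the marker lists of eosinophil-type cells, granulocyte precursors and, more weakly, monocytes and macrophages, so it is called by its number. It held 69.0% and 60.7% of all *MPO* UMIs and 70.4% and 58.0% of all *PRTN3* UMIs. *MPO* was at 2501 and 1061 CPM there. Cluster 11 (monocyte/macrophage-like, Mo/Mph-like, 962 and 418 cells) held 16.7% and 16.6% of *MPO* UMIs, at 418 and 203 CPM, and 53.9% and 45.9% of *LYZ* UMIs. It also passed the granulocyte precursor list, with 5 markers raised and a mean log2 ratio of 1.72, against 7 and 4.55 for the list that names it. It held 148 and 43 *PTPRC*-positive cells with at least 2 *MPO* UMIs, so its name need not hold for every cell.

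The rarer members were spread less evenly between the organoids. *DEFA3* had 77.6% and 98.3% of its UMIs in cluster 18 and *DEFA4* 78.0% and 40.2%. *CTSG* had 77.8% and 35.0% there, of 90 and 20 UMIs in all. In organoid 32.7 *ELANE* had 51.0% in cluster 18 and 27.7% in cluster 19, which was led by *AFP* and *SERPINA1*. *CAMP* had 25 of its 33 UMIs in cluster 11 and 7 in cluster 18 in organoid 32.7, and 2 and 4 of 8 in organoid 33.10. *LTF* had 78.2% of its UMIs in cluster 11 in organoid 32.7, but 2.06% in organoid 33.10, where 52.6% lay in the megakaryocyte-like cluster 9 (51 UMIs in 44 of 1353 cells). Only 6.19% of *LTF* UMIs of organoid 33.10 were in *PTPRC*-positive cells, against 86.2% in organoid 32.7.

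**Figure D5:**
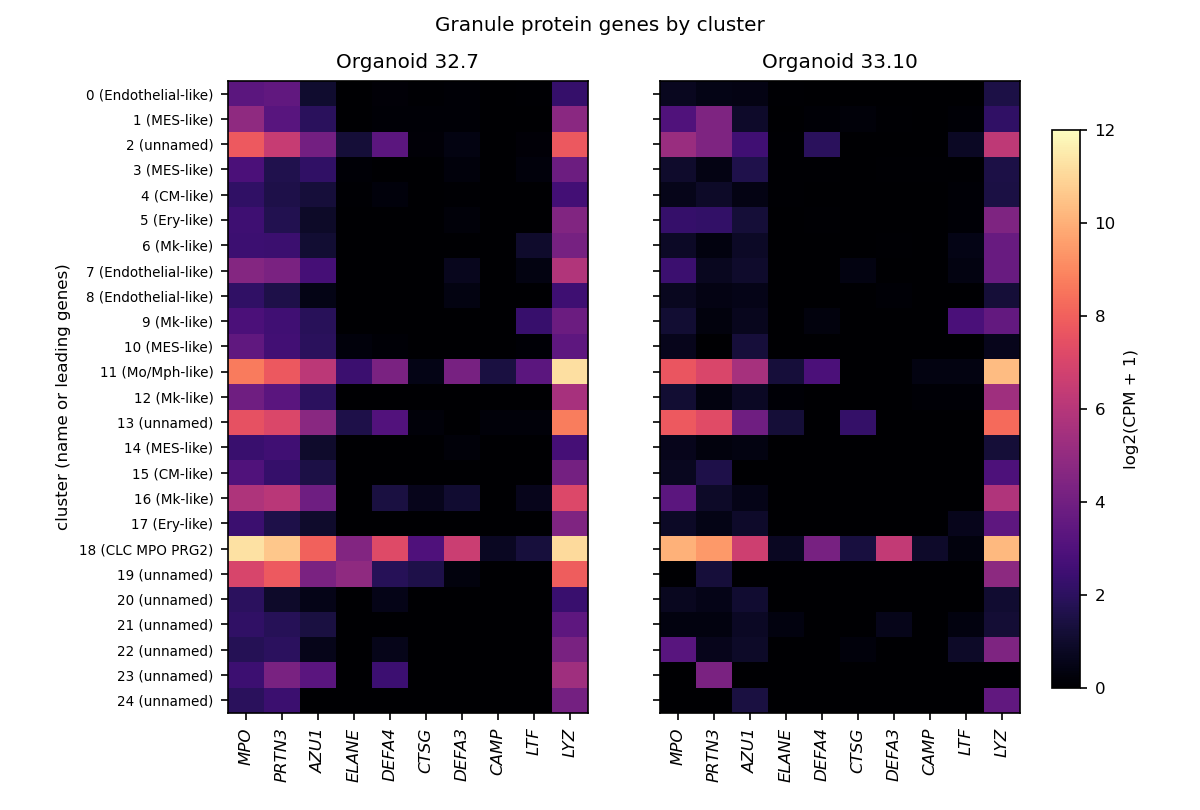
Level of each gene, as log2(CPM + 1), in the 25 clusters of both organoids, with cluster names from marker lists and leading genes for cluster 18. Cluster 18 is the brightest row for MPO, PRTN3 and AZU1 and cluster 11 for LYZ in both organoids, and LTF is bright in cluster 9 of organoid 33.10.

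The genes whose level over the 25 clusters was most like that of the summed azurophil members were *AC020656.1* (Pearson's r 0.964 on log2 CPM), *AL355922.1* (0.961), *PRAM1* (0.940), *TRGC1* (0.937), *CSTA*, *LAIR1*, *RNASE2*, *MS4A3*, *S100A9* and *PLAC8* (0.925). These values describe clusters that share libraries, and *AC020656.1* and *AL355922.1* were not examined for overlap with other genes.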

How the data were processed

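The authors aligned 10x Genomics 3′ reads to GRCh38 with Cell Ranger 7.0.0, counting intronic reads, and deposited raw UMI counts per gene and barcode, before their depth equalization and removal of ambient RNA. Levels are not divided by gene length. Here cells with 50 to 11000 genes and at most 30% mitochondrial UMIs were kept and clustered without the members (scanpy 1.11.5, 13 components, Leiden resolution 0.8). Doublets stayed in the main results. A caller's own threshold marked 0% and 21.4% of cells, so an alternative removed the 14.0% and 16.2% with the highest scores. Counts per gate and organoid were tested with edgeR 4.0.16 (TMM, filterByExpr) in R 4.3.3, with DESeq2 1.42.0 as an alternative. Members that passed the filter on low counts only with the MPO-gated sums (5 of 8) are reported without their tests. On simulated counts for 17349 genes, the test recovered 91.5% (other cells) and 86.5% (C1Q-gated) of genes changed by 2 on the log2 scale, and 25% and 15.5% of those changed by 1. At a change of 2 there were 18 and 15 false calls beside 183 and 173 recovered genes, and at a change of 1 there were 5 and 5 beside 50 and 31. The changed genes had a mean count over 20 and the sums were drawn independently, so sparse genes and paired gates were not covered. Gates of an organoid come from the same cells' library, and their deviations correlated (r = 0.208 to 0.375), so the organoid pairs them. The members and gene lists were chosen with earlier results of these data known. Named genes were the members, list genes, the 5 called genes with the largest change in each direction (at least 20 UMIs) and the 10 most like the azurophil sum. Intervals and floors (3 counts) cover counting error only. Promoters are from RefSeq.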

Additional observations from a re-analysis of the deposited data

Results flagged for a closer look

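Some signal lay outside the *PTPRC*-positive cells on which the comparisons rest. In organoid 32.7, 346 barcodes without a *PTPRC* UMI had at least 2 *MPO* UMIs, against 21 in organoid 33.10. Of the 346, 133 were in cluster 2, 62 in cluster 18 and 59 in cluster 19, and their median depth was 4367.5 UMIs, against 19021.5 in *PTPRC*-positive cells with as many *MPO* UMIs.

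*LTF* had a UMI in 44 cells of the megakaryocyte-like cluster 9 in organoid 33.10 (6.16 CPM) and in 8 cells in organoid 32.7 (4.04), when CM-like cells had 0.0955 and 0. *ELANE* had a UMI in 51 cells of cluster 19 in organoid 32.7, a cluster led by *AFP* and *SERPINA1*, at 29.1 CPM, against 22.1 in cluster 18 and 0.0642 in CM-like cells. Cluster 19 held 31 cells of organoid 33.10, with 0 *ELANE* UMIs. None of these differences between organoids was tested.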

How the results depend on the processing

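The number of genes called against other *PTPRC*-positive cells was 368 and became 2148 without a filter on low counts, 1318 with the organoid as a replicate block, 1045 without predicted doublets, 1021 with DESeq2 and 104 within clusters 11 and 18 only, a restriction chosen after seeing the data. Against C1Q-gated cells it was 1038 and became 2321 without the filter, 1675 with the replicate block and 2155 within clusters 11 and 18. The other alternatives kept both counts within 1.5 times. More genes were higher than lower against other cells (231 and 137), but fewer when 2 *PTPRC* UMIs were required (201 and 335), without the filter (1012 and 1136) and within clusters 11 and 18 (51 and 53). The mean share of cells with an azurophil UMI was 30.6% and became 17.4% at 1500 UMIs per cell. The specific-granule share was 1.58% and became 0.368% when 2 UMIs were required, 0.451% and 0.285% at 3000 and 1500 UMIs per cell and 2.61% within clusters 11 and 18. Leaving out either organoid gave 21.7% to 39.4% and 1.05% to 2.11%. The cause of these shifts was not tested, except that thinning removes UMIs by construction.

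*PRTN3* and *AZU1* kept their direction and their call in every alternative in which they were tested. *LYZ* kept its direction and passed in 3 of 12 alternatives in each comparison, the replicate block among them. The replicate block changed no call of *PRTN3* or *AZU1*. With 1 organoid left out the test has no residual degrees of freedom, so only fold changes were computed. Depth limits *CAMP*, *LTF*, *CTSG* and *DEFA3*, which rest on 3 to 34 positive cells per organoid. It also limits *ELANE* in organoid 33.10, which rests on 5 cells.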
